A study of Mus musculus with 8 samples.

Results

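Solute carriers are membrane proteins of the Slc families that move amino acids, sugars, ions, vitamins and other small molecules across the plasma membrane and the membranes of organelles. The genes described here are those with a symbol that begins with Slc and a family number, without the mitochondrial family Slc25a, and averaging 1 CPM or more (CPM, counts scaled to the size of the library) in either of 2 sorted lung cell fractions. Of 322 such symbols among 25509 genes, 198 in 46 families reached that level and 124 did not, 40 of them at 0 in every library. The level was reached in both fractions by 181 genes, in CD249+ cells only by 15 and in CD249- cells only by 2. Just inside the limit lay Slc6a7, at 1.08 and 0.831 CPM in CD249- and CD249+ cells, and just outside it Slc24a5, at 0.968 and 0.98 CPM, both scaled as described below. Because the genes were chosen by their levels in the fractions that are compared, counts over them are a description, and the 17 genes that reached the level in a single fraction are given by their values, with no test of their own.

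The cells came from the lungs of wild-type C57Bl6/J mice numbered 2, 7, 8 and 10, whose age the labels do not give. Lung cells without CD45, CD326 and CD31 at the surface were sorted into a CD249+ fraction and an equal number of CD249- cells of the same lung, which gave 4 RNA libraries of each. CD249 is glutamyl aminopeptidase, a peptide-trimming enzyme of the cell surface. The sample titles call both fractions fibroblasts, but the comparison is of sorted cells, whose cell type markers are given below. Values of single genes are CPM after TMM scaling, in the order of mice 2, 7, 8 and 10. Differences are log2 ratios of CD249+ over CD249- with a standard error (SE), and adjusted p values are those of edgeR's quasi-likelihood test with Benjamini-Hochberg adjustment over the 14524 genes tested. That test compared the fractions without pairing them by mouse, and a fit with mouse as a block was run as an alternative.

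Most carriers are exchangers or cotransporters that use the gradients of sodium, potassium or protons kept up by ion pumps. Family 1 moves glutamate and neutral amino acids, and several light chains of family 7 reach the surface only when joined to the heavy chain encoded by Slc3a2. Fibroblasts depend on carriers for the glycine and proline of collagen, for the sulfate attached to proteoglycans, and for metals used by matrix-modifying enzymes.

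Library totals ran from 23011383 to 31906414 counts. Of 8 fibroblast markers 7 were called higher in CD249+ cells, and all 8 pericyte markers were. Fibroblast markers summed to 5090 to 12501 CPM in CD249- and 13932 to 24902 CPM in CD249+ libraries. Pericyte markers summed to 201 to 310 CPM in CD249- and 708 to 1098 CPM in CD249+ libraries. Endothelial markers were lower for 12 of 12 genes (median log2 ratio -1.46) but stood high in both fractions despite the gate against CD31. They summed to 12933 to 17257 CPM in CD249- and 4194 to 7842 CPM in CD249+ libraries. This sum exceeded that of the fibroblast markers in every CD249- library and was below it in every CD249+ library. Epithelial markers summed to 179 to 832 and 497 to 10236 CPM, with the highest value in the CD249+ library of mouse 10. In mixed samples such as these, fewer cells of a type and less RNA per cell cannot be told apart.

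Among the 181 genes at 1 CPM or more in both fractions, 55 were called higher in CD249+ cells (30.4%) and 22 lower (12.2%). At that level in both fractions, 17.4% of 12840 genes were called higher and 15.4% lower. Differences of at least 2-fold were called for 29 and 10 of the 181. Among all 14524 genes tested the shares were 10.4% and 5.23%, but these are not limited to genes at that level in both fractions. All 4 mice shared the direction for 54 of the 55 and for each of the 22. With the genes that reached the level in a single fraction, 61 of 198 were higher and 22 lower, the added 6 all at that level in CD249+ cells only, beside 16.9% and 13.9% of all 14524 genes tested, or 30.8% in either direction. Without TMM, scaling by library size only, the calls were 48 higher and 25 lower among the 198, and 2106 higher and 2689 lower among all genes, against 2455 and 2013 with TMM. The summed level of the 198 genes was 9812 ± 524 CPM in CD249- and 10436 ± 710 CPM in CD249+ cells (SD, n = 4). Counts by transport class, given next, are over genes at 1 CPM or more in both fractions, to be read beside 17.4% and 15.4%, and summed levels of a class take in its other genes too. Of 39 mitochondrial Slc25a genes, 6 were higher and 2 lower.

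**Figure D1:**
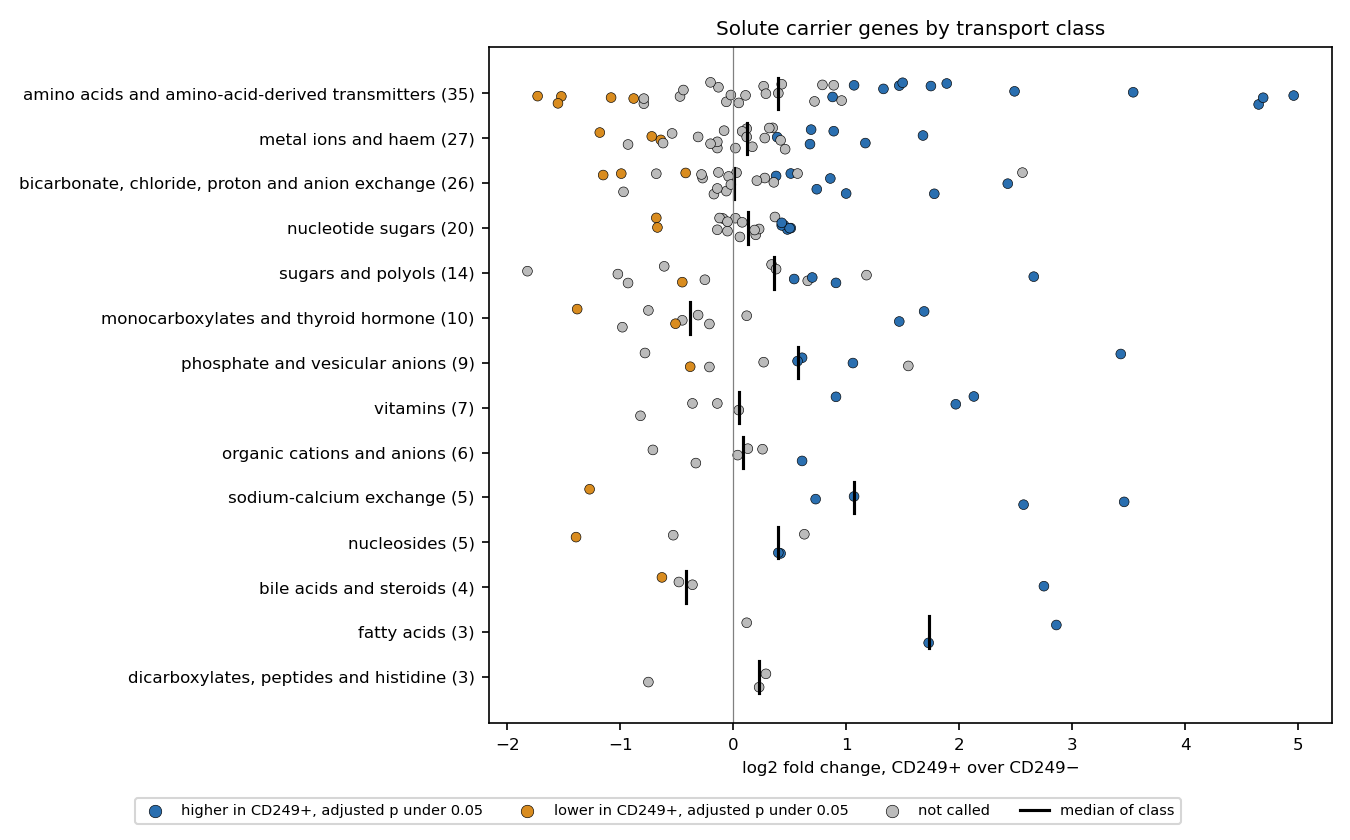
Log2 fold change (x axis, CD249+ over CD249-) of each gene at 1 CPM or more in both fractions, by transport class (y axis, number of genes in brackets), for classes with at least 3 such genes. Points are genes coloured by the call and black bars are class medians, which run from -0.42 for bile acid and steroid carriers to 1.73 for fatty acid carriers.

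Slc22a3 (ENSMUSG00000023828.2, chromosome 17, 12418960 to 12507704, minus strand, GRCm38), which encodes a polyspecific organic cation transporter that clears monoamines after their release, was detected mostly in CD249+ cells. Its levels were 0, 0.42, 0 and 0.39 CPM in CD249- and 22.1, 25, 12.4 and 30.1 CPM in CD249+ cells. The gene reached 1 CPM in CD249+ cells only and was at 0 in the CD249- libraries of mice 2 and 8. Its neighbour of the same family, Slc22a2, at a distance of 76427 bases, had a mean of 0 CPM in either fraction. Of 6 organic ion carriers at the level in both fractions, 1 was called higher and 0 lower by edgeR, with 0 lower at an unadjusted p under 0.05. Slc22a17, which encodes a receptor for the iron-binding protein lipocalin 2, rose from 31.9 ± 2.56 to 48.7 ± 9.67 CPM (mean ± SD, n = 4) (log2 ratio 0.61, SE 0.14, adjusted p = 0.00957). The carnitine carrier gene Slc22a5 was not called at 38.5 and 39.7 CPM (adjusted p = 0.876). Slc22a4 and the efflux carrier gene Slc47a1 reached 1 CPM in CD249+ cells only, with means of 0.826 and 3.08 CPM and of 0.601 and 4.11 CPM in CD249- and CD249+ cells.

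Of 35 genes of amino acid carrier families at 1 CPM or more in both fractions, 12 were called higher and 5 lower. The summed level of the class was 2716 to 2820 CPM in CD249- and 3189 to 3644 CPM in CD249+ libraries, without overlap. Slc36a2 (ENSMUSG00000020264.5, chromosome 11, 55158470 to 55185077, minus strand, GRCm38), a proton-coupled carrier of glycine, alanine and proline, stood at 5.81, 7.07, 2.84 and 6.84 CPM in CD249- and 193, 170, 115 and 227 CPM in CD249+ cells. The lowest CD249+ value was many times the highest CD249- value (log2 ratio 4.96, SE 0.32, adjusted p = 6.79e-06). On either side of it on the chromosome, Slc36a3 had a mean of at most 0.0438 CPM, and Slc36a1, which exports amino acids from lysosomes, was not called at 2.93 and 4.83 CPM (adjusted p = 0.195). Slc38a5, a sodium-coupled carrier of glutamine and other neutral amino acids, showed 8.57, 7.39, 2.54 and 9.18 CPM in CD249- and 174, 169, 127 and 227 CPM in CD249+ cells. Here too every CD249+ library exceeded every CD249- library (log2 ratio 4.65, SE 0.37, adjusted p = 1.89e-05). In the same family Slc38a4 rose from a low level, from 1.71 to 5.76 CPM (adjusted p = 0.0124), while Slc38a2, which cells induce when amino acids run short, was not called at 218 ± 33.1 and 234 ± 47.1 CPM (mean ± SD, n = 4) (adjusted p = 0.648).

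Slc7a10 (ENSMUSG00000030495.12, chromosome 7, 35186385 to 35201114, plus strand, GRCm38), a light chain for small neutral amino acids including D-serine, stood at 4.28, 3.61, 4.34 and 4.86 CPM in CD249- and 180, 87.6, 55.3 and 118 CPM in CD249+ cells. The CD249- libraries were nearly equal and the CD249+ libraries spread widely above them (log2 ratio 4.69, SE 0.35, adjusted p = 1.4e-05). It overlaps Lrp3 on the opposite strand, whose level was 19.6 and 85.9 CPM, and without strand-specific libraries reads of overlapping genes cannot be told apart. The gene of the heavy chain, Slc3a2 (ENSMUSG00000010095.13, chromosome 19, 8706882 to 8723369, minus strand, GRCm38), went the other way and fell from 578, 607, 577 and 552 CPM to 357, 279, 324 and 293 CPM. All CD249+ libraries were below all CD249- libraries (log2 ratio -0.88, SE 0.11, adjusted p = 0.000233). Among other light chains, Slc7a7, which exchanges cationic for neutral amino acids, fell from 26.2 to 12.4 CPM (log2 ratio -1.08, SE 0.25, adjusted p = 0.0084). Slc7a6, with the same kind of exchange, rose from 11.6 to 21.4 CPM (adjusted p = 0.0348), but its fractions overlapped. The call was lost when any of 6 of the 8 libraries was left out (highest adjusted p = 0.0945), and with library size only (adjusted p = 0.0529). With mouse as a block its adjusted p was 0.002. The leucine carrier gene Slc7a5 was not called at 10.4 and 13.7 CPM (adjusted p = 0.464). Slc7a2, an arginine carrier that needs no heavy chain, rose from 8.94 ± 1.99 to 18.7 ± 3.8 CPM (mean ± SD, n = 4) (adjusted p = 0.0051).

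The glutamate carriers of family 1 went both ways. Slc1a3 (ENSMUSG00000005360.14, chromosome 15, 8634124 to 8710764, minus strand, GRCm38), which encodes GLAST, a carrier of glutamate and aspartate, rose from 12.9, 14.1, 12.6 and 16.9 CPM to 166, 167, 144 and 184 CPM. The libraries of each fraction lay close together, and the log2 difference within mice 2, 7, 8 and 10 was 3.68, 3.56, 3.52 and 3.44 (log2 ratio 3.54, SE 0.13, adjusted p = 8.98e-07). Slc1a1, another high-affinity glutamate carrier, fell from 18.1, 14.7, 20.6 and 27.6 CPM to 9.98, 7.04, 5.7 and 5.51 CPM, again without overlap (log2 ratio -1.52, SE 0.26, adjusted p = 0.00171). On the opposite strand its gene body overlaps 4430402I18Rik, at 2.33 and 3.72 CPM. Slc1a2, the main glial glutamate carrier, was low, at 0.266, 0, 0 and 0.57 CPM in CD249- and 0.823, 1.13, 2.3 and 6.41 CPM in CD249+ cells. The neutral amino acid exchangers of the family both rose. Slc1a4, which carries serine and alanine, went from 11.5 ± 0.83 to 64.8 ± 13.7 CPM (mean ± SD, n = 4) (log2 ratio 2.49, SE 0.17, adjusted p = 7.88e-06). Slc1a5, which carries glutamine, went from 101 ± 26.5 to 279 ± 40.4 CPM (mean ± SD, n = 4) (log2 ratio 1.47, SE 0.20, adjusted p = 0.000505).

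In family 43, the carriers of large neutral amino acids rose, Slc43a1 from 10.7 to 27 CPM (adjusted p = 0.00195) and Slc43a2 from 18.1 to 67.3 CPM (adjusted p = 0.000158). Slc43a3, whose product carries purine nucleobases although it is counted here by its family, lies 72984 bases from Slc43a1. It stood at 1020, 875, 952 and 943 CPM in CD249- and 854, 930, 920 and 939 CPM in CD249+ cells, which overlap, and was not called (log2 ratio -0.06, SE 0.10, adjusted p = 0.713). In family 6 the glycine carrier gene Slc6a9 rose from 11.2 ± 3.85 to 31.9 ± 5.73 CPM (mean ± SD, n = 4) (adjusted p = 0.00156), and the taurine carrier gene Slc6a6 was not called at 230 and 226 CPM (adjusted p = 0.924). The monoamine carriers of this family fell. Slc6a2, the noradrenaline carrier, showed 117, 94.2, 122 and 61 CPM in CD249- and 33.3, 22.9, 50.2 and 28.2 CPM in CD249+ cells (log2 ratio -1.55, SE 0.27, adjusted p = 0.00208). Slc6a4, the serotonin carrier of platelets and lung endothelium, showed 6.08, 26, 13.6 and 7.23 CPM in CD249- and 3.62, 5.56, 4.14 and 2.64 CPM in CD249+ cells (log2 ratio -1.73, SE 0.46, adjusted p = 0.0181). Both were lower in every CD249+ library than in any CD249- library. The Slc6a4 call was lost without the CD249- library of mouse 7, which held its highest value, or without the CD249+ library of mouse 10 (highest adjusted p = 0.0509). Red cell and platelet markers summed to 130, 1043, 677 and 113 CPM in CD249- and 40.5, 190, 428 and 35.2 CPM in CD249+ cells, with 4 of 9 called lower and none at 0 in every library. Their part in the Slc6a4 result was not tested.

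**Figure D2:**
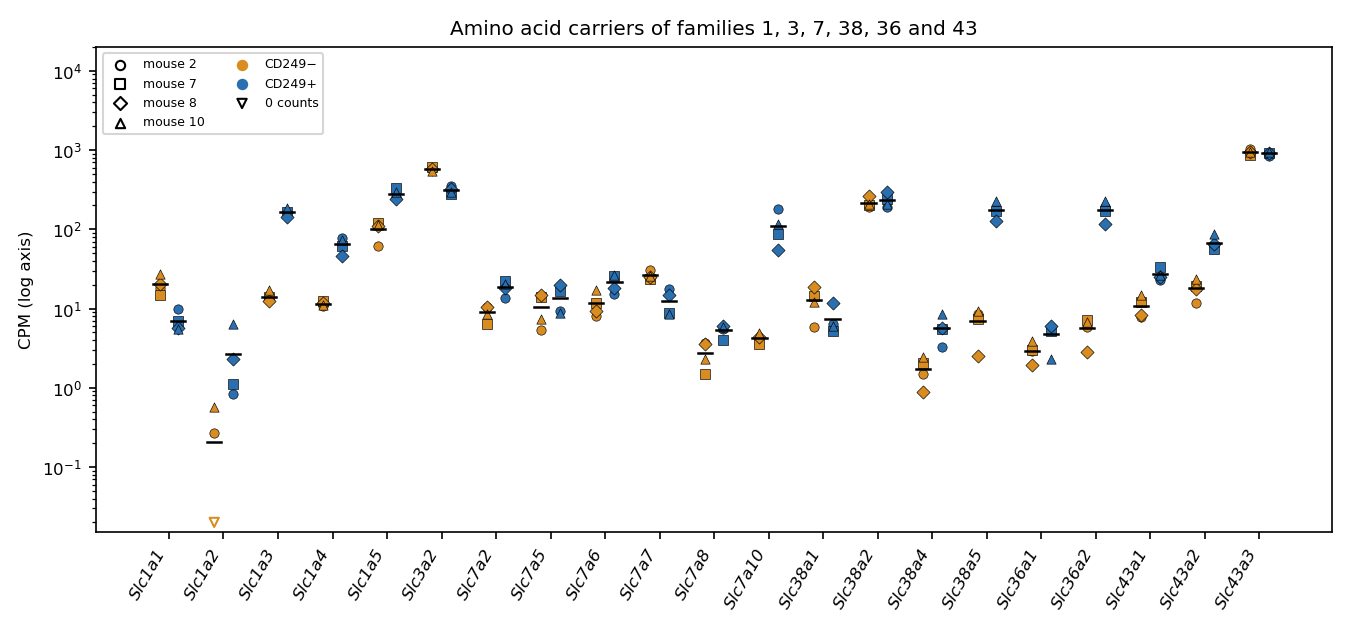
CPM on a log axis of amino acid carrier genes of families 1, 3, 7, 38, 36 and 43 in each library (symbols for the mice, orange for CD249- and blue for CD249+, black bars for means, open triangles for libraries at 0). Slc1a3, Slc7a10, Slc38a5 and Slc36a2 stand at 55.3 CPM or more in each CD249+ library and at 16.9 CPM or less in each CD249- library, while Slc3a2 is lower in CD249+ cells.

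The RefSeq promoter table (GRCm38.p6) held 148 of the 198 genes. The 250 bases before the RefSeq start are shown for Slc22a3 (chr17:12507705-12507954, minus strand), which reached 1 CPM in CD249+ cells only. They are also shown for Slc7a10 (chr7:35186135-35186384, plus strand) and Slc1a3 (chr15:8710808-8711057, minus strand), both called higher in CD249+ cells. The last is Slc9a3r2 (chr17:24650306-24650555, minus strand), an abundant gene that fell. The sequences are written 5′ to 3′ on the gene's strand. Capitals mark matches, on either strand, to the core promoter motif TATAAA, the GC box GGGCGG, the E-box CACGTG, the AP-1 site TGANTCA, the amino acid response element TGATGNAAN, the T-box factor site AGGTGTGA and another E-box, CAGGTG, the last of which was added after the Slc22a3 sequence was seen.
Slc22a3: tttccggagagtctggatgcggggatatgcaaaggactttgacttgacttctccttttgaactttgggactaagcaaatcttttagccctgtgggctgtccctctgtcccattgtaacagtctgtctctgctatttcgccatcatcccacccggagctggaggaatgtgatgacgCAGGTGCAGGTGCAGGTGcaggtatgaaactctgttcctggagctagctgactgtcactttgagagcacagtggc
Slc7a10: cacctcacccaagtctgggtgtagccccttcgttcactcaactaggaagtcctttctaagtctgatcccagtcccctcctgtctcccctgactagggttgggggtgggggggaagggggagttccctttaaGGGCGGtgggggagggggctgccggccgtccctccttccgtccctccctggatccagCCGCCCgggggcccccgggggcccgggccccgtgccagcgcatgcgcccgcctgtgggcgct
Slc1a3: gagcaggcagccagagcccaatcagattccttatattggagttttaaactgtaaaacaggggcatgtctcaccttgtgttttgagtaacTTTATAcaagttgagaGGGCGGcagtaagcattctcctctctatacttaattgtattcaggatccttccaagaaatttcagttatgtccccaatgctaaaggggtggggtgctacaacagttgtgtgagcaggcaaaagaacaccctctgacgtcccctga
Slc9a3r2: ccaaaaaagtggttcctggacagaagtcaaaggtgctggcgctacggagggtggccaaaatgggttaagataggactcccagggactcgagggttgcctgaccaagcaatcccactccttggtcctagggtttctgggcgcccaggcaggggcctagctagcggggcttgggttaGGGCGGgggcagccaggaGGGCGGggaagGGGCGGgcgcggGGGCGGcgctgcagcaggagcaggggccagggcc
The Slc22a3 promoter held 3 adjoining CAGGTG matches and no GC box, and that of Slc9a3r2 held 4 GC boxes. The GC box was found in 61.5% of the 148 promoters and in 32.7% of all 32851 promoters of this length. It was in 30 of 49 promoters of called increases and 11 of 18 of called decreases. Those 49 take in genes, such as Slc22a3, at 1 CPM or more in CD249+ cells only. CACGTG was in 10.8% of the 148 promoters and 6.02% of all, and CAGGTG in 19.6% and 17.2%. TGATGNAAN was in 3.38% and 3.44%, AGGTGTGA in 0.676% and 1.12%, TGANTCA in 5.41% and 6.75%, and TATAAA in 7.43% and 12.4%. Median GC content was 61.8% in the 148 promoters and 52.4% in all. The 148 are of genes chosen by their level, 1 promoter each, while the 32851 were not limited by level. Shares of these unlike sets therefore do not show a trait of solute carriers. A match describes the letters only.

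Fatty acid transport proteins of family 27 take up long-chain fatty acids and join them to coenzyme A. Of the 3 genes at the level in both fractions, 2 were called higher and 0 lower by edgeR, with 0 lower at an unadjusted p under 0.05. The sum of the family was 42.6 to 68.5 CPM in CD249- and 163 to 204 CPM in CD249+ libraries. Slc27a3 rose from 7.74, 8.37, 12.7 and 14.6 CPM to 75.9, 87.2, 62.2 and 90.6 CPM (log2 ratio 2.86, SE 0.23, adjusted p = 1.86e-05). Slc27a1, the member of fat and muscle that responds to insulin, rose from 16.3 ± 3.83 to 54.1 ± 6.43 CPM (mean ± SD, n = 4) (log2 ratio 1.73, SE 0.18, adjusted p = 9.23e-05). Every CD249+ library exceeded every CD249- library for both. Slc27a6 reached 1 CPM in CD249+ cells only, at 0.631, 1.05, 0.709 and 0.99 CPM in CD249- and 11.1, 12.4, 13.5 and 23.4 CPM in CD249+ cells. Slc27a4 was not called at 27.5 and 29.9 CPM (adjusted p = 0.642).

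Sodium-calcium exchangers use the sodium gradient to move calcium out of the cytosol or of mitochondria. Each of the 5 genes was called, 4 higher and 1 lower. Slc8a3 showed 0.565, 2.38, 0 and 1.32 CPM in CD249- and 8.66, 15.2, 14 and 9.49 CPM in CD249+ cells (log2 ratio 3.46, SE 0.81, adjusted p = 0.00946). It was low in CD249- cells, with 0 in mouse 8, and without the CD249- library of mouse 7 the log2 ratio was 4.19. Slc8a1, the exchanger of heart muscle, rose from 4.55 to 9.58 CPM (adjusted p = 0.0131). Slc8b1, which lets calcium out of mitochondria, rose from 44.5, 43, 43.5 and 53 CPM to 71, 77.3, 76 and 80.1 CPM (log2 ratio 0.73, SE 0.10, adjusted p = 0.000495). The exchangers that also move potassium went apart. Slc24a3 rose from 3.06, 8.83, 8.01 and 5.19 CPM to 34.9, 45.6, 24.2 and 43.6 CPM (log2 ratio 2.57, SE 0.34, adjusted p = 0.00038). Slc24a4 fell from 67.3, 55, 55.8 and 64 CPM to 38.5, 13.7, 21.8 and 26.2 CPM (log2 ratio -1.27, SE 0.26, adjusted p = 0.00452). Per kilobase of exon, Slc24a4 was above Slc24a3 in CD249- cells, at 13.4 against 1.37 CPM per kilobase, and below it in CD249+ cells, at 5.54 against 8.12 CPM per kilobase.

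Carriers of bicarbonate, chloride and protons set pH and cell volume. Of 26 genes at the level in both fractions, 7 were called higher and 3 lower. Slc4a3, an exchanger of chloride for bicarbonate, rose from 7.6, 8.97, 6.26 and 4.62 CPM to 30.3, 45.3, 34.3 and 37.6 CPM (log2 ratio 2.43, SE 0.22, adjusted p = 4.59e-05). Slc9a9, a sodium-proton exchanger of endosomes, rose from 4.05 ± 0.489 to 13.9 ± 1.77 CPM (mean ± SD, n = 4) (adjusted p = 0.000154). In family 12, the gene of the inward sodium-potassium-chloride carrier, Slc12a2, rose from 22.6 to 41.1 CPM (adjusted p = 0.0275), a call lost without any of 3 libraries (highest adjusted p = 0.0806). The outward potassium-chloride carriers differed in direction. Slc12a4 rose from 158 to 225 CPM (adjusted p = 0.00778), and Slc12a7 fell from 127 ± 11.6 to 63.9 ± 10.5 CPM (mean ± SD, n = 4) (log2 ratio -0.99, SE 0.13, adjusted p = 0.000389). Slc26a2, which supplies sulfate to cartilage matrix, fell from 36 to 26.9 CPM (adjusted p = 0.0118), and Slc13a4 reached 1 CPM in CD249+ cells only, at 0.0332, 0.595, 0.0834 and 0 CPM in CD249- and 13.3, 7.47, 3.89 and 8.32 CPM in CD249+ cells. Slc26a10 fell from 14.1 ± 3.34 to 6.35 ± 1.21 CPM (mean ± SD, n = 4) (log2 ratio -1.15, SE 0.23, adjusted p = 0.00418). It overlaps B4galnt1 on the opposite strand, at 53.8 and 35.7 CPM.

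Of 27 carriers of metals and haem, 6 were called higher and 3 lower. The zinc exporter gene Slc30a1, which high zinc induces, fell from 46.2, 39.2, 49.4 and 41.6 CPM to 28.8, 12.8, 21 and 15.4 CPM, without overlap (log2 ratio -1.18, SE 0.23, adjusted p = 0.00363). Zinc carriers of family 39, which move zinc into the cytosol, went both ways. Slc39a6 fell from 98.8 to 59.9 CPM (adjusted p = 0.00463). Slc39a13, whose loss causes a connective tissue disorder, rose from 48.5, 48.7, 48.7 and 55.1 CPM to 76.2, 73, 81 and 92.4 CPM (log2 ratio 0.68, SE 0.10, adjusted p = 0.000822). It overlaps Psmc3 on the opposite strand, at 158 and 149 CPM. Slc39a7, which releases zinc from the endoplasmic reticulum, rose from 249, 240, 202 and 247 CPM to 268, 334, 298 and 324 CPM (adjusted p = 0.0237). That call was lost with library size only and without any of 3 libraries (highest adjusted p = 0.0744). The magnesium carrier gene Slc41a3 rose from 13 ± 3.91 to 41.6 ± 4.56 CPM (mean ± SD, n = 4) (log2 ratio 1.68, SE 0.20, adjusted p = 0.000224). Slc40a1, which encodes the iron exporter ferroportin, rose from 11.9 to 26.8 CPM (adjusted p = 0.00374), and Slc31a2, related to copper carriers, fell from 87.3 to 56 CPM (adjusted p = 0.0156).

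Of 14 genes of sugar and polyol carrier families at the level in both fractions, 4 were called higher and 1 lower. Slc2a8, an intracellular glucose carrier, rose from 39.6, 40.4, 30.7 and 42.9 CPM to 59.2, 59.8, 51.5 and 52.3 CPM (log2 ratio 0.54, SE 0.12, adjusted p = 0.00812). Slc2a10, whose loss causes arterial tortuosity, rose from 28 to 52.6 CPM (adjusted p = 0.0266) with overlap between the fractions, and the call was lost without any of 3 libraries (highest adjusted p = 0.0748). Slc2a4, the carrier that insulin brings to the surface of fat and muscle cells, reached 1 CPM in CD249+ cells only, at 0.332, 1.37, 0 and 0.6 CPM in CD249- and 3.36, 4.6, 3.47 and 7.4 CPM in CD249+ cells. The basal glucose carrier gene Slc2a1 was not called at 28.2 and 35.9 CPM (adjusted p = 0.207). Slc2a3, the neuronal glucose carrier, was not called at 22.9 and 11.3 CPM (adjusted p = 0.106), but it was lower with mouse as a block (adjusted p = 0.00406). Slc50a1 fell from 136, 162, 125 and 142 CPM to 107, 107, 103 and 96.2 CPM (log2 ratio -0.45, SE 0.10, adjusted p = 0.00699).

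Family 16 moves lactate, pyruvate, ketone bodies and thyroid hormone. Of its 10 genes at the level in both fractions, 2 were called higher and 2 lower. Slc16a13 fell from 26.6, 22.6, 15.6 and 21.1 CPM to 11.4, 6.05, 8.56 and 6.88 CPM (log2 ratio -1.38, SE 0.24, adjusted p = 0.00191), while its neighbour Slc16a11, 371 bases away, was not called at 2.39 and 1.75 CPM (adjusted p = 0.601). Slc16a7, a high-affinity pyruvate carrier, rose from 1.55 ± 0.472 to 4.99 ± 1.35 CPM (mean ± SD, n = 4) (log2 ratio 1.69, SE 0.39, adjusted p = 0.00893). The main lactate carriers were not called, Slc16a1 at 12.9 and 14 CPM (adjusted p = 0.86) and Slc16a3 at 19.9 and 16.1 CPM (adjusted p = 0.588). Slc16a9 fell from 347 to 244 CPM (adjusted p = 0.0303) with overlap, a call lost without any of 6 libraries (highest adjusted p = 0.0838). With mouse as a block its adjusted p was 0.00113.

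Of 7 vitamin carriers at the level in both fractions, 3 were called higher and 0 lower by edgeR, with 1 lower at an unadjusted p under 0.05, the riboflavin carrier gene Slc52a3, at 8.87 and 5.03 CPM (adjusted p = 0.0973). The folate carriers both rose. Slc46a1, the proton-coupled one, went from 1.73, 3.92, 6.8 and 4.95 CPM to 12.9, 17.1, 15.8 and 22.1 CPM (log2 ratio 1.97, SE 0.37, adjusted p = 0.00305). Slc19a1, the reduced folate carrier, went from 4.95 ± 1.83 to 21.6 ± 7.39 CPM (mean ± SD, n = 4) (log2 ratio 2.13, SE 0.34, adjusted p = 0.00116). Slc19a1 overlaps Col18a1 on the opposite strand, which stood at 74.3 and 290 CPM, and the part of that gene in the Slc19a1 value was not tested. The thiamine carrier gene Slc19a2 rose from 10.8 to 20.3 CPM (adjusted p = 0.00466). Of 5 nucleoside carriers 2 were higher and 1 lower. Slc29a1, the main equilibrative carrier of adenosine, rose from 300, 315, 308 and 334 CPM to 409, 451, 377 and 448 CPM (log2 ratio 0.42, SE 0.10, adjusted p = 0.00834). Its lysosomal relative Slc29a3 rose from 30.6, 32.4, 33.1 and 28.4 CPM to 47, 40.8, 38.2 and 37.6 CPM (adjusted p = 0.0212), a call lost with library size only or without the CD249- library of mouse 10 (adjusted p = 0.0609). Slc29a4, which also takes up monoamines, fell from 4.61 to 1.76 CPM (adjusted p = 0.0308), and lost the call without any of 6 libraries (highest adjusted p = 0.0828).

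Family 35 feeds the Golgi with the nucleotide sugars and sulfate donor used for glycans and proteoglycans. Of 20 genes at the level in both fractions, 6 were called higher and 2 lower, and no called difference reached 2-fold. Slc35b4, a carrier of UDP-xylose and UDP-N-acetylglucosamine, rose from 53.3, 46.7, 54 and 42.4 CPM to 66.2, 80.4, 62.9 and 69.9 CPM (log2 ratio 0.51, SE 0.12, adjusted p = 0.00853). Slc35e4, whose substrate is not known, fell from 62.8, 54.6, 57.1 and 58.9 CPM to 40.1, 35.8, 35.2 and 35.2 CPM (log2 ratio -0.67, SE 0.09, adjusted p = 0.000523). The carriers of the sulfate donor PAPS went apart. Slc35b2 rose from 51.4 to 71.5 CPM (adjusted p = 0.0481), a call lost without any of 5 libraries (highest adjusted p = 0.129) and with library size only (adjusted p = 0.107), and Slc35b3 fell from 32.9 to 20.6 CPM (adjusted p = 0.0101).

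Of 9 carriers of phosphate and of lysosomal or vesicular anions, 4 were called higher and 1 lower. Slc20a2, a sodium-phosphate cotransporter, rose from 15.2 ± 3.28 to 31.8 ± 3.53 CPM (mean ± SD, n = 4) (log2 ratio 1.06, SE 0.17, adjusted p = 0.00122). It overlaps Smim19 on the opposite strand, at 20.6 and 23.7 CPM, and Gm17491 on the same strand, at 1.91 and 0.884 CPM. Slc37a3 rose from 38, 36.1, 41.2 and 41.3 CPM to 53.6, 59.3, 60 and 60 CPM (log2 ratio 0.57, SE 0.09, adjusted p = 0.00125), and Slc17a5, the sialic acid exporter of lysosomes, rose from 21 to 32.2 CPM (adjusted p = 0.00462). Slc34a2, the phosphate carrier of surfactant-making alveolar type II cells, stood at 10, 5.11, 16.1 and 48.2 CPM in CD249- and 30.5, 37.7, 68.5 and 725 CPM in CD249+ cells. It was higher in CD249+ cells of all 4 mice, but the fractions overlapped and a single library, that of mouse 10, stood far above the rest (log2 ratio 3.43, SE 1.13, adjusted p = 0.0434). The call was lost without any of 4 libraries. The log2 ratio was 1.19 (adjusted p = 0.22) without the CD249+ library and 4.38 without the CD249- library of mouse 10. With mouse as a block and all 8 libraries it was 2.65 (adjusted p = 0.000478). The surfactant gene Sftpc showed 126, 58.6, 126 and 448 CPM in CD249- and 320, 483, 781 and 7551 CPM in CD249+ cells, also highest in mouse 10. Within mice 2, 7, 8 and 10 the log2 difference was 1.60, 2.88, 2.09 and 3.91 for Slc34a2 and 1.35, 3.04, 2.64 and 4.08 for Sftpc. Of 10 epithelial markers 3 were higher, none was called lower and none was at 0 in every library, and their part in the Slc34a2 result was not tested. Slc26a9, a chloride carrier of airway epithelium, stood at 0, 0, 0.0417 and 4.38 CPM in CD249- and 0, 0.602, 1.95 and 23.9 CPM in CD249+ cells, again highest in mouse 10, and was not called (adjusted p = 0.35, or 0.00978 with a block for mouse).

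Among smaller classes, Slc10a6, which carries sulfated steroids, rose from 3.79, 21.8, 6.88 and 13.1 CPM to 63.8, 76.1, 65.7 and 101 CPM (log2 ratio 2.75, SE 0.46, adjusted p = 0.00147), and Slc10a7 fell from 26.5 to 17.2 CPM (adjusted p = 0.0131). The choline carrier gene Slc44a1 rose from 175 ± 5.7 to 221 ± 12.3 CPM (mean ± SD, n = 4) (adjusted p = 0.0113), a call lost with library size only (adjusted p = 0.0503). Slc14a1, a urea carrier, reached 1 CPM in CD249- cells only, at 0, 4.45, 4.96 and 1.47 CPM in CD249- and 1.05, 0.283, 1.06 and 1.4 CPM in CD249+ cells, which overlap.

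**Figure D3:**
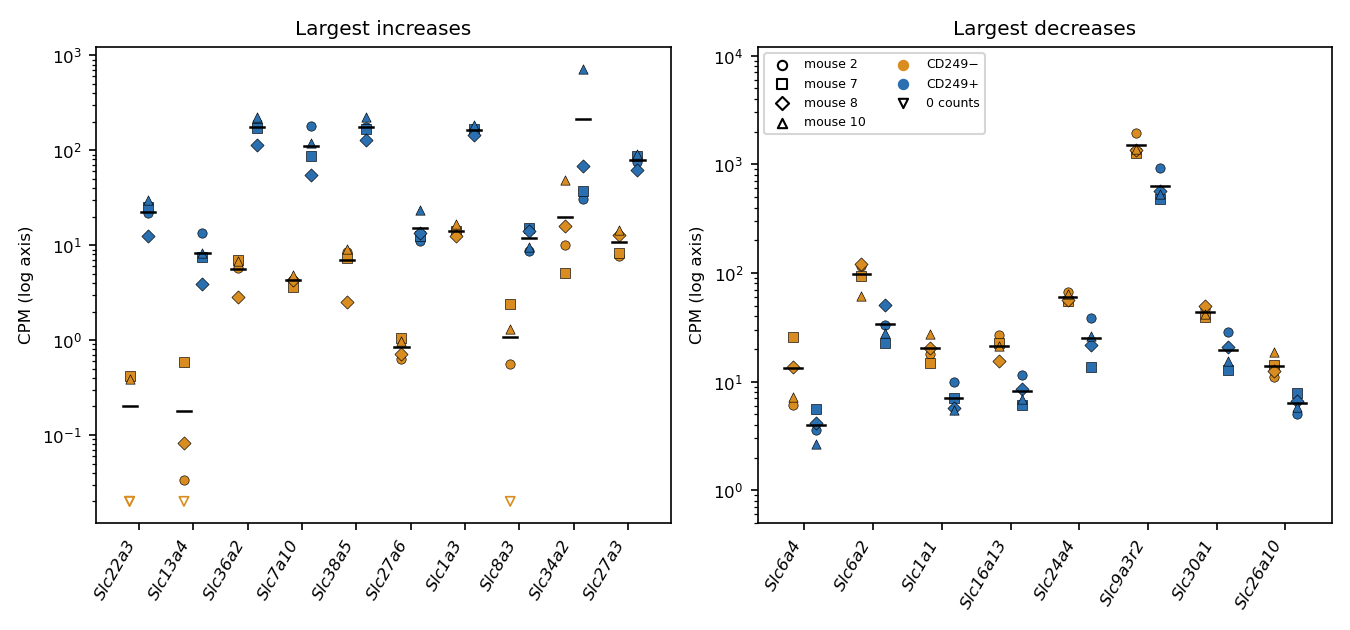
CPM on a log axis in each library for the genes with the largest increases (left) and decreases (right) among called genes whose higher fraction averaged 5 CPM or more and whose 4 mice shared 1 direction (symbols for the mice, orange for CD249- and blue for CD249+, black bars for means, open triangles for libraries at 0). Slc22a3, Slc13a4 and Slc27a6, at 1 CPM or more in CD249+ cells only, are shown for their values. The fractions overlap for Slc34a2, whose highest value, 725 CPM, is that of mouse 10.

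The symbol pattern also takes in genes that encode no carrier. Slc9a3r2 and Slc9a3r1 encode the scaffold proteins NHERF2 and NHERF1, which tether carriers and receptors at the membrane. Slc9a3r2 (ENSMUSG00000002504.14, chromosome 17, 24639286 to 24650327, minus strand, GRCm38) fell from 1943, 1268, 1362 and 1384 CPM to 929, 483, 569 and 538 CPM (log2 ratio -1.24, SE 0.23, adjusted p = 0.00251). Slc9a3r1 fell from 45.6, 56.5, 54.5 and 48.5 CPM to 30.5, 29.2, 32.9 and 19.7 CPM (log2 ratio -0.87, SE 0.16, adjusted p = 0.00268). For both, every CD249+ library was below every CD249- library. Slc7a6os, named for its place beside Slc7a6, and Slc4a1ap, an adaptor gene, were not called (adjusted p = 0.204 and 0.345). By family number, Slc7a6os is counted above with the amino acid carriers and Slc4a1ap with those of bicarbonate, chloride and protons.

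The decreases can be set beside the endothelial markers. Within mice 2, 7, 8 and 10 the summed endothelial level differed by -1.14, -1.65, -1.50 and -1.71 on the log2 scale. Slc9a3r2 differed by -1.06, -1.39, -1.26 and -1.36 and Slc30a1 by -0.68, -1.61, -1.23 and -1.43. Slc6a2 differed by -1.81, -2.04, -1.28 and -1.11 and Slc1a1 by -0.86, -1.06, -1.85 and -2.32 in the same order of mice. The part of endothelial RNA in these decreases was not tested. Leukocyte markers, measured despite the gate against CD45, had a median log2 ratio of -0.63, with none called. They summed to 1338 to 2439 CPM in CD249- and 1109 to 3369 CPM in CD249+ libraries. Within mice 2, 7, 8 and 10 their sum differed by 0.26, -0.67, -0.63 and 1.10. Their part in the decreases was not tested. Of 6 mesothelial markers 4 were called lower and 1 higher (median log2 ratio -1.63), with sums of 79.8 to 204 CPM in CD249- and 92.4 to 115 CPM in CD249+ libraries, and their part in the decreases was not tested either. In that order the summed fibroblast markers differed by 1.45, 1.27, 1.72 and 0.93 and the pericyte markers by 2.21, 2.02, 2.45 and 1.19, and their part in the increases was not tested.

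**Figure D4:**
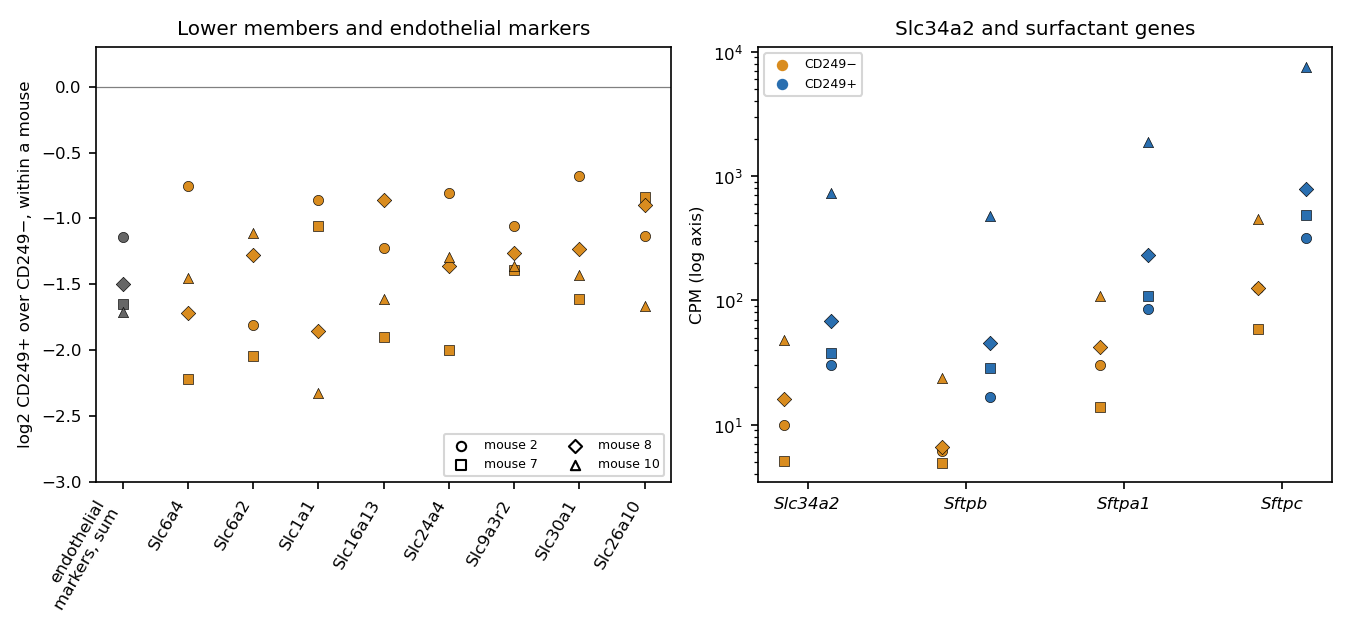
Left: log2 CD249+ over CD249- within each mouse (y axis, symbols for the mice) for the summed level of 12 endothelial markers (grey) and the 8 largest decreases (orange), all below 0. Right: CPM on a log axis of Slc34a2 and 3 surfactant genes in each library (orange for CD249-, blue for CD249+), all highest in the CD249+ library of mouse 10.

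Carriers with other symbols, and the pumps and subunits that solute carriers rely on, made a list of 75 genes in the table, of which 59 passed the filter on low counts. Of these, 15 were called higher (25.4%) and 10 lower (16.9%), beside 16.9% and 13.9% of all genes, and their median log2 ratio was 0.16 beside -0.02. Beta subunits and regulators of the sodium-potassium pump, which builds the sodium gradient, went both ways. Atp1b2 rose from 4.25, 5.67, 5.42 and 6.57 CPM to 27, 41.2, 30.7 and 28.1 CPM (log2 ratio 2.53, SE 0.20, adjusted p = 1.78e-05). Fxyd1, a regulator of the pump in muscle, rose from 20.3, 35.9, 17.3 and 41.4 CPM to 121, 172, 109 and 167 CPM (log2 ratio 2.30, SE 0.29, adjusted p = 0.000313). Atp1b3 fell from 409 to 282 CPM (adjusted p = 0.00256) and Fxyd5 from 167 to 86.8 CPM (adjusted p = 0.000986). None of these overlapped between fractions.

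Cp, which overlaps Hps3 on the opposite strand, at 27.2 and 24.4 CPM, encodes ceruloplasmin, the iron oxidase that works with ferroportin. It rose from 26.6, 54, 40 and 61.7 CPM to 321, 423, 328 and 482 CPM (log2 ratio 3.09, SE 0.26, adjusted p = 2.99e-05). Heph, the related oxidase of the gut, rose from 19.6 to 31.8 CPM (adjusted p = 0.0254), a call lost without any of 3 libraries (highest adjusted p = 0.0672). Of the genes related to magnesium carriers, Nipal3 fell from 46.7, 37.6, 33.3 and 32.3 CPM to 14.1, 12.1, 12 and 11.8 CPM (log2 ratio -1.58, SE 0.15, adjusted p = 5.67e-05) and Nipal2 from 38.8 ± 4.06 to 18.4 ± 2.05 CPM (mean ± SD, n = 4) (log2 ratio -1.07, SE 0.13, adjusted p = 0.000217). Nipa1 rose from 13.1 to 20.7 CPM (adjusted p = 0.0121), while Nipa2, at 31.3 and 29.6 CPM (adjusted p = 0.725), and Nipal1, at 0.81 and 1.25 CPM (adjusted p = 0.647), were not called. Slco2a1, the prostaglandin carrier, fell from 1611 ± 338 to 671 ± 205 CPM (mean ± SD, n = 4) (adjusted p = 0.0021). Spns2, the sphingosine phosphate exporter of endothelium, fell from 407 ± 75.7 to 152 ± 52.1 CPM (mean ± SD, n = 4) (adjusted p = 0.00104). The organic anion carrier gene Slco2b1 rose from 72 to 179 CPM (adjusted p = 0.00373). Bsg, the chaperone of lactate carriers, was not called at 260 and 304 CPM (adjusted p = 0.213, or 0.0365 with a block for mouse).

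Levels of different genes were compared per kilobase of exon. Over the 8 libraries the 5 highest were Slc9a3r2, at 563 and 238 CPM per kilobase in CD249- and CD249+ cells, Slc43a3 at 212 and 204, Slc3a2 at 164 and 88.8, Slc39a7 at 90.7 and 118 and Slc29a1 at 78.4 and 105. In CD249+ cells the same 5 genes were the highest, while in CD249- cells Slc50a1, at 96.3, stood above Slc39a7 and Slc29a1, and Slc16a9, at 89.8, above Slc29a1. In CD249+ cells Slc38a5 stood at 77.9 CPM per kilobase, Slc36a2 at 54.2, Slc7a10 at 52.3 and Slc1a3 at 19.3, all below these 5.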

How the data were processed

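RNA from 8 libraries was measured, 4 of CD249- and 4 of CD249+ cells sorted from the same mice, with groups and mouse numbers taken from the sample titles. Per the labels' protocols, cDNA was made from oligo(dT)-primed RNA with a SMART-Seq V4 kit and sequenced as single reads, without molecular identifiers or strand. The authors deposited estimated counts per gene, 12.01% of which are not whole. The tools R 3.6.3, DESeq2 1.26.0, RSEM 1.2.28, STAR 2.6.1 and bcl2fastq 2.20 are listed, per the submitters' processing notes, with no order or role, beside the human build GRCh38, although the deposited genes are of mouse. The annotation used for counting is not stated in what was used here, and coordinates and exon lengths are from GENCODE M21 (GRCm38), matched by gene ID for all 198 genes.

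Counts were rounded and fitted with edgeR 4.0.16 (filterByExpr, TMM, quasi-likelihood test on the fraction alone) in R 4.3.3, with calls at an adjusted p under 0.05. The scripts were tested on simulated data. Alternatives were DESeq2 1.42.0, limma 3.58.1 (voom), RLE factors, library size only, no filter on low counts, mouse as a block, other limits on level, and leaving out libraries or mice. The mouse number pairs the fractions, since both came from the same lung; deviations from the group means correlated at 0.132 to 0.285 within mice and at -0.212 to 0.0515 between mice. The 92 rows of spike-in controls, at 0 throughout, were left out. Library totals and the 4 mice per group set the precision. RSEM shares reads between similar genes, so close paralogs are uncertain.

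Genes were named by these rules: the 10 largest increases and 8 largest decreases among called genes at 5 CPM or more with 1 direction in all 4 mice, the 2 smallest p values in each class of at least 5 genes, the 5 highest per kilobase, the 2 scaffold genes, and the 6 smallest p values among other carriers and partners. Other genes named were chosen after their values were seen, as examples of their class. Classes follow family numbers. A few genes that these rules or the classes take in are not reported here. The genes and lists were chosen with earlier results of these data known.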

Additional observations from a re-analysis of the deposited data

Results flagged for a closer look

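Within each fraction, 92 groups of 4 values were examined for a library whose gap to the nearest other library takes up most of the range (past Dixon's critical value), and 7 were found. For independent, normally distributed values chance gives about 1 in 20 such groups. These 92 groups come from the same 8 libraries and from genes chosen by the rules above. The 7 therefore cannot be judged against that rate. In CD249+ cells, Slc34a2 stood at 725 CPM in mouse 10 and at 30.5 to 68.5 CPM in the other mice. Mouse 2 was set apart in that fraction for Slc35e4, at 40.1 CPM against 35.2 to 35.8 CPM, for Nipal3, at 14.1 CPM against 11.8 to 12.1 CPM, and for Slc37a3, at 53.6 CPM against 59.3 to 60 CPM. In CD249- cells, mouse 10 was set apart for Slc39a13, at 55.1 CPM against 48.5 to 48.7 CPM, and for Slc8b1, at 53 CPM against 43 to 44.5 CPM. Slc13a4 in CD249- cells stood at 0.595 CPM in mouse 7 and at 0 to 0.0834 CPM in the other mice.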

How the results depend on the processing

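Of the 198 genes, 61 were called higher, 6 of them at 1 CPM or more in CD249+ cells only, and 22 lower. Leaving out a single library gave 46 to 61 higher and 19 to 24 lower, beside 2038 to 2479 and 1563 to 1979 of all genes tested. No gene of the 198 was called in the opposite direction under any alternative. Counts of the 198 under the alternatives take in the 17 genes that reached the level in a single fraction. The alternative fits were not recounted over the 181 genes at the level in both fractions. Without both libraries of mouse 8, 40 of the 198 were higher, beside 1777 of all 14581 genes tested in that fit. Mice 7 and 8 alone gave 39 higher and 14 lower, beside 1777 and 1251 of 14763 genes. Mice 2 and 10 alone gave 14 higher and 0 lower by edgeR, beside 570 and 98 of 14680 genes. In that last fit 18 of the 198 were lower at an unadjusted p under 0.05, and no other tool was run on these mice. Of the other carriers and partners, 15 were higher and 10 lower, with 12 to 16 and 8 to 11 when a single library was left out. Without both libraries of mouse 10, 9 of these were higher, mice 7 and 8 alone gave 9 higher, and mice 2 and 10 alone gave 6 higher and 1 lower. These alternatives hold fewer samples. The log2 ratio of Slc43a3, -0.06 and not called, was 0.03 without both libraries of mouse 2 and 0.05 in mice 7 and 8 alone; the cause was not tested. With mouse as a replicate block, 67 genes were higher and 27 lower, including 59 and 22 of those called without it. Over all 14524 genes, that fit called 2809 higher and 2489 lower. The block changed the call of Slc2a3, Slc26a9 and Bsg, given beside their results, and of no other gene whose test is described above. Calls given above as lost without single libraries were kept with the block, at adjusted p from 0.000478 (Slc34a2) to 0.0314 (Slc29a4). Fits without single libraries held no block, and the block was not fitted on fewer libraries. Scaling by library size only moved the median log2 ratio of all genes from -0.02 to -0.12. It ended the calls given above for Slc7a6, Slc29a3, Slc35b2, Slc39a7 and Slc44a1. Limma-voom gave 61 higher and 23 lower, beside 2487 and 2054 over all genes, without calls for Slc34a2 and Slc6a4. DESeq2 gave 68 and 24, beside 2954 and 2359 over all genes, with no adjusted p for Slc34a2 or Slc26a9. Genes near the floor of detection in 1 fraction have no precise fold change, and counts from amplified cDNA without molecular identifiers limit the precision of low genes.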
